A study of Mus musculus with 7 samples.

Results

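The nuclear genes of oxidative phosphorylation were examined in mouse CD8+ T cells exposed to small extracellular vesicles (sEVs). Members had to average 5 or more counts over 7 libraries and to carry a symbol that starts with Nduf followed by a, b, c, s or v (complex I), is Sdha, Sdhb, Sdhc or Sdhd (II), starts with Uqcr or is Cyc1 (III), starts with Cox4 to Cox8 (IV) or starts with Atp5 (V), and does not end in -ps. This rule found 88 genes among the 12623 tested, from 104 matching rows of a table of 55367. Complex I held 45 members, complex II 4, complex III 9, complex IV 14 and complex V 16. The symbols also took in 8 complex I assembly factors (Ndufaf genes), Ndufa4, which is named for complex I and belongs to complex IV, and Cox7a2l, a factor that joins complexes III and IV into supercomplexes. The other 16 matching rows had a mean under 5 counts and were not tested.

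The recipient cells of both groups were CD8+ T cells sorted from the spleens of healthy mice of the Foxp3 YFP/cre strain, and all were exposed to sEVs at 100 μg/ml for 48 hours. In 3 libraries (LME-sEVs) the vesicles came from the leukemia microenvironment, the spleens of Eμ-TCL1 mice, in which an immunoglobulin enhancer and promoter drive TCL1 in B cells and a disease like chronic lymphocytic leukemia develops. In 4 libraries (HCME-sEVs) they came from healthy spleens. The study's own description of this experiment gives the group sizes the other way round, and the labels were followed here. If the labels were swapped, every direction given here would be reversed. No culture without vesicles was included, and the culture methods add plate-bound anti-CD3, anti-CD28 and IL2 for CD8+ T cells and describe the vesicle amount as that found in each kind of spleen, whereas the labels give 1 concentration for all. The ages of the animals are not in the labels.

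Oxidative phosphorylation couples the transfer of electrons from NADH and succinate to oxygen, along complexes I to IV of the inner mitochondrial membrane, to the synthesis of ATP by complex V. Most subunits are encoded in the nucleus, and those of complexes I, III, IV and V are assembled with subunits made from the mitochondrial genome, whereas complex II is nuclear throughout. T cells rely on this pathway as naive and memory cells and also raise it, together with glycolysis, after activation.

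Library totals lay between 3689831 and 5030522 counts, and a floor of 3 counts per library corresponded to 0.582 to 0.807 CPM (counts scaled to a common library total with TMM). The 8 CD8+ T-cell markers were all tested, with a summed level of 2610 to 2780 CPM after HCME-sEVs and 2890 to 3170 CPM after LME-sEVs, and Cd3e and Cd3g were called higher after LME-sEVs (in 5 and 3 of 7 fits that left out a library). Summed levels of 4 B-cell markers stayed at or under 7.19 CPM, of Cd4 and Foxp3 at or under 0.596 CPM and of 4 myeloid markers at 0.796 to 2.32 against 2.98 to 3.52 CPM. The 4 basophil and mast cell markers summed to 4.64 to 30.3 CPM after HCME-sEVs and 22.3 to 32.9 CPM after LME-sEVs. Mcpt8 and Prss34 were called higher after LME-sEVs (in 3 and 5 of those 7 fits), with Prss34 at 0 counts in HCME-sEV library 1. Cpa3, the other one tested, had a negative log2 fold change (-0.26) and was not called. The 4 erythroid markers summed to 32.2 to 42.2 against 34.2 to 49.3 CPM, with Hba-a1 called higher (in 1 of the 7 fits). These calls are edgeR's, and DESeq2 called only Cd3e of these markers. The part of these differences in the results that follow was not tested. In bulk RNA, fewer cells of a type and less RNA per cell cannot be told apart. Nothing in the labels says whether libraries of a group came from separate animals or cultures, so the p-values measure the spread between these libraries.

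Few of the nuclear oxidative phosphorylation genes differed after LME-sEVs, and none by a large factor. With edgeR's quasi-likelihood test and Benjamini-Hochberg adjustment (FDR under 0.05), 4 of 88 members (4.55%) were called, against 8.96% of all tested genes. The assembly factors Ndufaf4 and Ndufaf2 were lower (2 members, against 5.21% of all genes called lower), and the supercomplex factor Cox7a2l and the complex I subunit Ndufv3 were higher (2 members, against 3.75% called higher). No member reached the log2 fold change beyond 1 that 1.28% of all genes passed together with the FDR. An unadjusted p under 0.05 was found for 9 members (10.2%), against 22.7% of all tested genes. limma-voom called 2 members lower and 2 higher, DESeq2 called 1 lower and 2 higher, and both also had 0 beyond a log2 fold change of 1. Groups without overlapping libraries were found for 9 members (10.2%), 5 lower and 4 higher, against 20.3% of all tested genes.

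Fold changes of the members were narrowly spread around 0. The median log2 fold change was -0.01 over the 88 members, with 46 negative and 42 positive (36 and 52 when scaled by library size alone), and 0.01 over all tested genes. The interquartile range of the members ran from -0.11 to 0.07 on the log2 scale, that of all tested genes from -0.16 to 0.20. An absolute log2 fold change under 0.2 was found for 79 members (89.8%), for 53.9% of all tested genes and for 66.5% of those averaging 20 CPM or more, a level that 81 members reached. At that level 4.94% of members and 12.7% of all genes were called. The summed level of the members was 19300 ± 1270 CPM (SD, n = 4) after HCME-sEVs and 19119 ± 571 CPM (SD, n = 3) after LME-sEVs, or 1.90% against 1.94% of all counts. Single libraries ranged from 18309 to 21071 CPM and from 18644 to 19752 CPM, so the groups overlapped.

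The precision of single members set what could be seen. The median half-width of the 95% interval of a log2 fold change was 0.19, and the interval lay wholly within 0.25 of 0 for 30 members, within 0.5 for 76 and within 1 for 86. The other two were Cox6b2 and Cox6a2, isoforms at a few CPM.

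**Figure D1:**
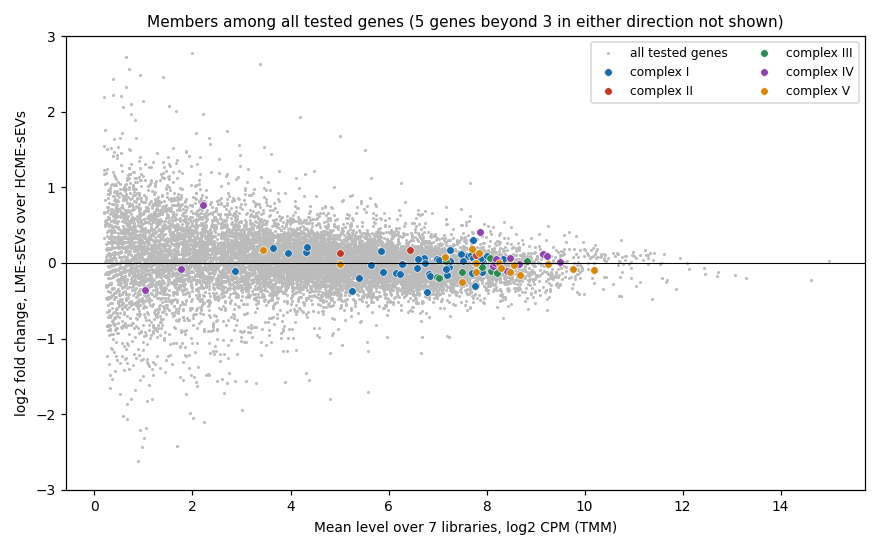
Log2 fold change (LME-sEVs over HCME-sEVs, vertical axis) against the mean level over 7 libraries (log2 CPM, horizontal axis) for all tested genes (gray) and the members of each complex (colors). The members sit close to 0 across levels from 2.03 to 1175 CPM, and 5 genes that are no members lie beyond the axis limit of 3.

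Cox7a2l, also known as SCAF1 and best known for linking complex III to complex IV, had the clearest difference. Its level was 202, 204, 215 and 196 CPM in HCME-sEV libraries 1 to 4 and 240, 297 and 278 CPM in LME-sEV libraries 1 to 3. All LME-sEV libraries were above all HCME-sEV libraries. The means were 204 ± 8.01 CPM (SD, n = 4) and 272 ± 29.1 CPM (SD, n = 3), a log2 fold change of 0.41 (SE 0.08, FDR 0.00344, edgeR). Leaving out any 1 library kept the call, with FDR values up to 0.0459.

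Ndufv3 encodes a small accessory subunit of the NADH-oxidizing part of complex I. Its level was 210, 186, 160 and 217 CPM after HCME-sEVs and 225, 252 and 237 CPM after LME-sEVs. The groups did not overlap, but the highest HCME-sEV library lay near the lowest LME-sEV library. The log2 fold change was 0.30 (SE 0.09, FDR 0.0479, edgeR), and the call was lost without HCME-sEV library 2 or 3 (FDR 0.132 and 0.103) and without LME-sEV library 1, 2 or 3 (FDR 0.0644, 0.215 and 0.137).

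Ndufaf4 encodes a chaperone-like factor needed to assemble complex I. Its level was 144, 121, 121 and 105 CPM after HCME-sEVs and 102, 88.5 and 91.3 CPM after LME-sEVs. The groups did not overlap, and HCME-sEV library 4 was only just above LME-sEV library 1. The log2 fold change was -0.39 (SE 0.10, FDR 0.0191, edgeR), and it was no longer called without LME-sEV library 2 (FDR 0.117) or 3 (FDR 0.0972).

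Ndufaf2, another complex I assembly factor, which binds a late assembly intermediate, showed a similar difference at a lower level. Its level was 45.8, 44.6, 42.7 and 37.5 CPM after HCME-sEVs and 31.5, 33.3 and 33.9 CPM after LME-sEVs, without overlap. The log2 fold change was -0.37 (SE 0.11, FDR 0.0398, edgeR). It was the least stable of the calls: without 1 library it was kept only when HCME-sEV library 4 was left out, with FDR 0.0897, 0.107 and 0.0507 without HCME-sEV libraries 1, 2 and 3 and 0.124, 0.121 and 0.103 without LME-sEV libraries 1, 2 and 3, and DESeq2 gave an FDR of 0.0883. Its exons overlap those of B230220B15Rik on the other strand, and whether counting used the strand is not given in the sources used here, so reads of these genes may not have been told apart.

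**Figure D2:**
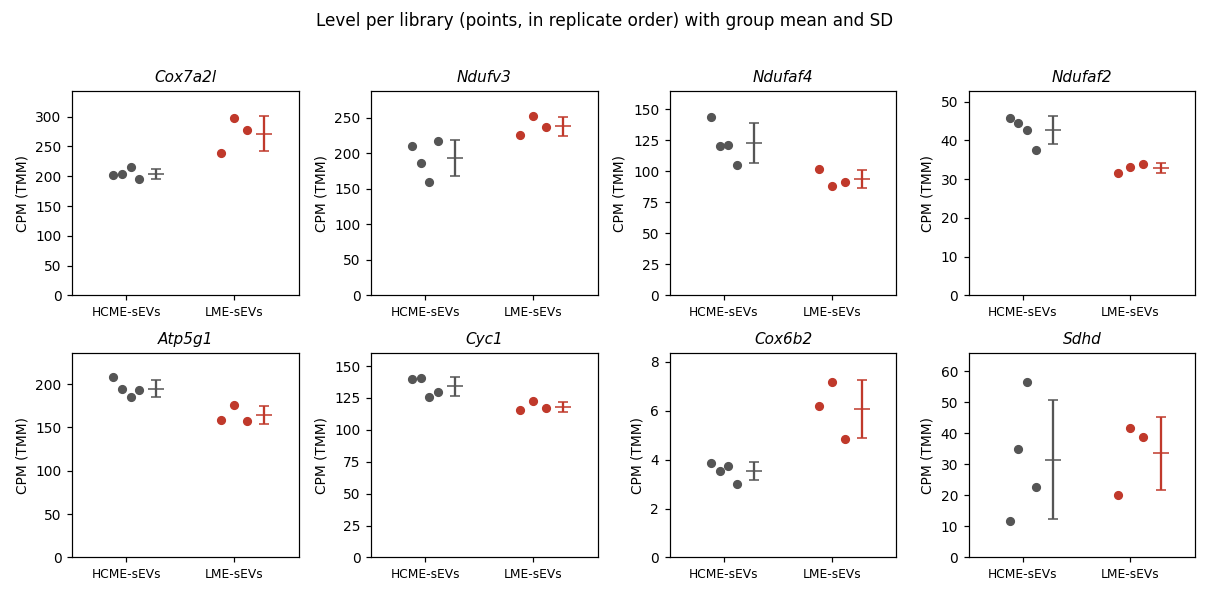
TMM-scaled CPM (vertical axis, from 0) of the 4 called members (top) and of Atp5g1, Cyc1, Cox6b2 and Sdhd (bottom) in each library, with gray points for HCME-sEVs (n = 4), red points for LME-sEVs (n = 3) and the group mean with its SD beside them. The 4 called members separate the groups, as do Atp5g1, Cyc1 and Cox6b2, which were not called. The libraries of either group are far apart for Sdhd, from 11.8 to 56.5 CPM.

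The promoter windows of the 4 called members are shown because these genes carry the calls, 250 bases before to 50 after the RefSeq start on GRCm38.p6. Counts from the 3′ end do not show which start was used. Each is written 5′ to 3′ on the strand of the gene. Of the motifs searched (given with the motif counts further on), 1 was present, the NRF1 core in Ndufaf4, 112 bases before the start, and capitals mark it. Cox7a2l lies at chr17:83514284-83514583 on the minus strand, Ndufv3 at chr17:31519865-31520164 on the plus strand, Ndufaf4 at chr4:24897833-24898132 on the plus strand and Ndufaf2 at chr13:108158576-108158875 on the minus strand. The Cox7a2l window lies inside the gene as GENCODE vM21 draws it (chr17:83501918-83517330), which starts upstream of it.
Cox7a2l: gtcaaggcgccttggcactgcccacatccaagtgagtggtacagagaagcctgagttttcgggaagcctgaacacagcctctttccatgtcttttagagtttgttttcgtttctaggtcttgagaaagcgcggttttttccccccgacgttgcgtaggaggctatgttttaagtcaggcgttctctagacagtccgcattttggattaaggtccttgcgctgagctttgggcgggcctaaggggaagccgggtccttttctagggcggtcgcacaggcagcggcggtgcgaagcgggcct
Ndufv3: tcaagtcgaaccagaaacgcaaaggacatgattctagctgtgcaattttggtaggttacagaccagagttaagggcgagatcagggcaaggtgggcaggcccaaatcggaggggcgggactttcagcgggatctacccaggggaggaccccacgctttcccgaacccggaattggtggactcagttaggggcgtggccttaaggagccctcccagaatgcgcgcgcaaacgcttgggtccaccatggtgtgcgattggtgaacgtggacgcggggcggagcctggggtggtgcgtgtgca
Ndufaf4: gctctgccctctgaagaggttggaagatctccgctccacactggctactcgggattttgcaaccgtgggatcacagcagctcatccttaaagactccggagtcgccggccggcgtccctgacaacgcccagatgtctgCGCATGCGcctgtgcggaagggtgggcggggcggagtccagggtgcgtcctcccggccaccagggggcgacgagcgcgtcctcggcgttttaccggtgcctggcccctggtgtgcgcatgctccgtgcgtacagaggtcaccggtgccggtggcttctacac
Ndufaf2: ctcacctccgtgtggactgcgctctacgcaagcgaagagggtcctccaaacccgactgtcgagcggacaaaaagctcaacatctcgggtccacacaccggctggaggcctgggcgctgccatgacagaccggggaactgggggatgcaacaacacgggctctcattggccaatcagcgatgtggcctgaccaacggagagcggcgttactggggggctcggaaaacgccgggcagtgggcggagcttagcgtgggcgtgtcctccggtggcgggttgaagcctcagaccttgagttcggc

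Complex I, the NADH dehydrogenase, is built from a peripheral arm that takes up electrons and a membrane arm that pumps protons. The median log2 fold change of its 45 members was 0.01, with 21 negative and 24 positive, from -0.39 (Ndufaf4) to 0.30 (Ndufv3). Of the 37 members that are no assembly factors, 0 were called lower and 1 higher, and 2 had an unadjusted p under 0.05. In the peripheral arm, 5 of 7 core subunits, which carry the flavin, the iron-sulfur clusters and the quinone site, had negative fold changes, with a median of -0.08 (log2), and 4 of 7 when scaled by library size alone. None was called by edgeR, limma-voom or DESeq2, and 0 had an unadjusted p under 0.05. Ndufs1, the largest of these subunits, was at 179, 155, 131 and 150 CPM after HCME-sEVs and 139, 148 and 129 CPM after LME-sEVs, and the groups overlapped (log2 fold change -0.15, FDR 0.36). Ndufs7 (-0.15, FDR 0.386) and Ndufv1, which binds NADH (0.05, FDR 0.845), also overlapped.

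The 9 accessory subunits of the peripheral arm held both the highest and, after the assembly factors, the lowest fold change of the complex. Besides Ndufv3, these were Ndufa5, at 309, 231, 189 and 216 CPM after HCME-sEVs and 200, 197 and 180 CPM after LME-sEVs (log2 fold change -0.30, FDR 0.124). Its groups overlapped, and HCME-sEV library 1 lay far above the others. The 19 accessory subunits of the membrane arm had a median of 0.04, from -0.12 (Ndufc2) to 0.17 (Ndufa1), with 12 positive, 0 called by any of the 3 tools and 0 at an unadjusted p under 0.05. Ndufab1, the mitochondrial acyl carrier protein, had a log2 fold change of 0.02, and Ndufa4 one of -0.18 (FDR 0.411).

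Of the 8 Ndufaf assembly factors, 2 were called lower (against 5.21% of all tested genes) and 0 higher, and the call of Ndufaf2 was kept in 1 of 7 fits that left out a library. The called pair was at 31.5 to 144 CPM in single libraries. The remaining 6 lay between -0.13 (Ndufaf8) and 0.21 (Ndufaf7) on the log2 scale, and none of them was called. Their intervals were wide, with a median half-width of 0.27 over the 8.

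**Figure D3:**
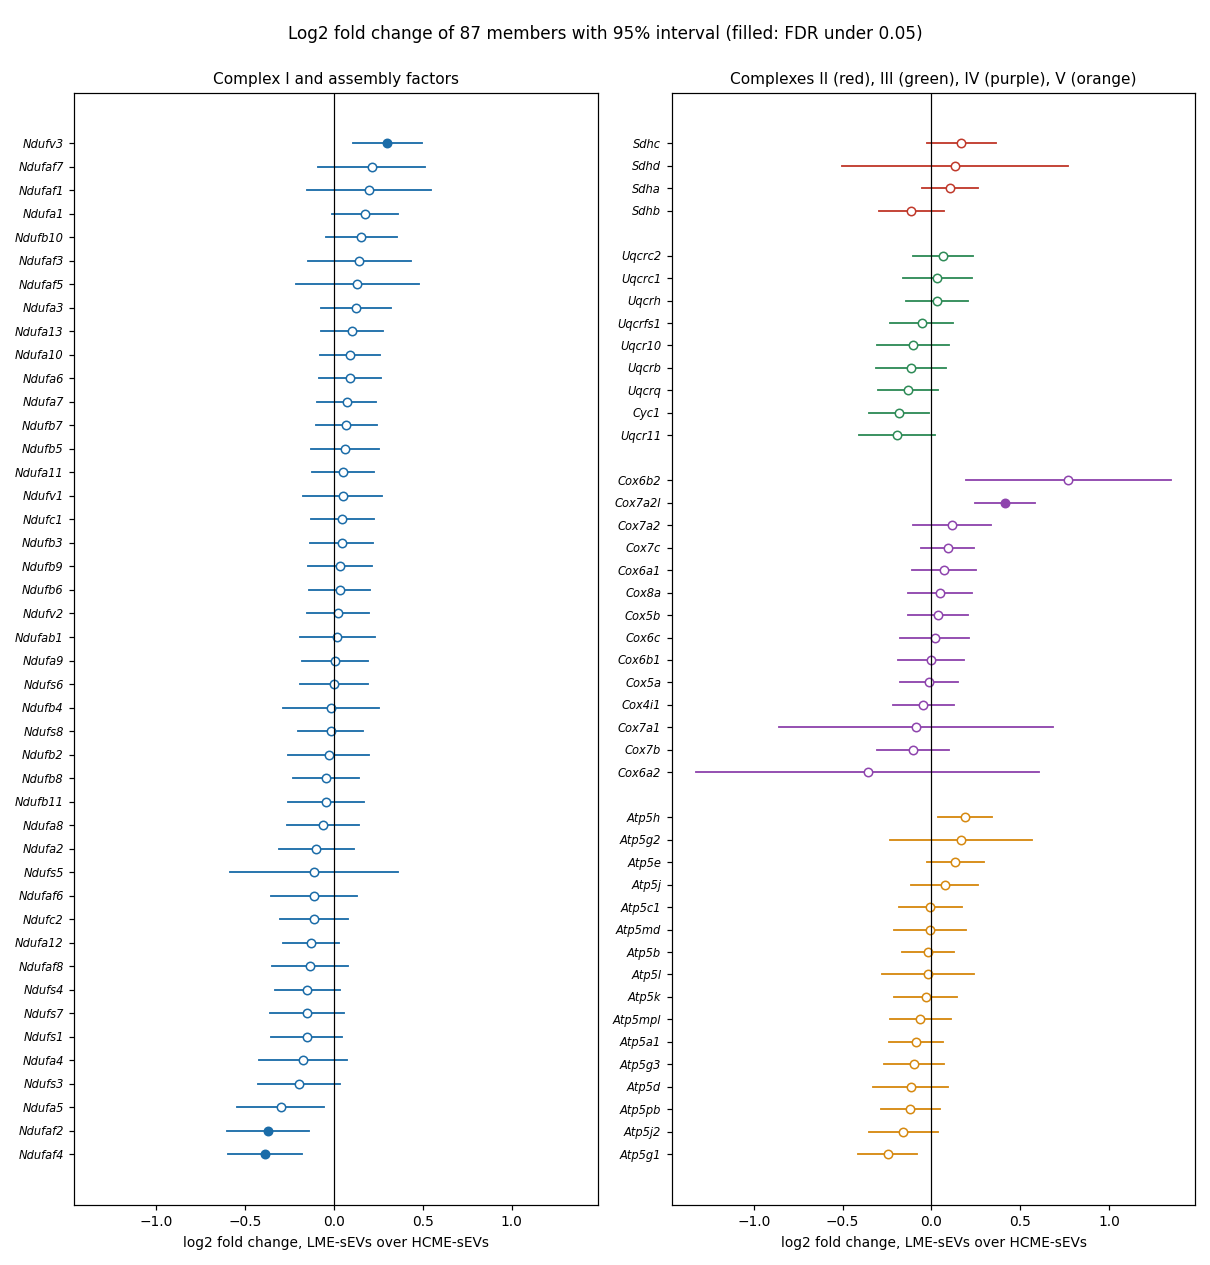
Log2 fold change with its 95% interval (horizontal axis, LME-sEVs over HCME-sEVs) for 87 of the 88 members, complex I with its assembly factors on the left and complexes II to V on the right. Filled points mark FDR under 0.05, which are Ndufv3, Ndufaf2, Ndufaf4 and Cox7a2l.

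Complex II, succinate dehydrogenase, feeds electrons from the tricarboxylic acid cycle into the chain. Its 4 members had log2 fold changes of 0.10 (Sdha, the flavoprotein, FDR 0.442), -0.11 (Sdhb, the iron-sulfur subunit, FDR 0.486), 0.17 (Sdhc, a membrane anchor, FDR 0.296) and 0.13 (Sdhd, the other anchor, FDR 0.85). None was called by edgeR, limma-voom or DESeq2, and none had an unadjusted p under 0.05. Sdhd was at 11.8, 35.0, 56.5 and 22.6 CPM after HCME-sEVs and 20.2, 41.8 and 38.8 CPM after LME-sEVs. The libraries of each group were thus much further apart than the groups, and the within-group SD of Sdhd was 0.81 on the log2 scale, against a median of 0.14 over all members. Leaving out single libraries moved the log2 fold change of Sdhd between -0.14 (without HCME-sEV library 1) and 0.57 (without HCME-sEV library 3).

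Complex III, the cytochrome bc1 complex, passes electrons from ubiquinol to cytochrome c. Its 9 members had the lowest median of the complexes, -0.11 (log2), with 6 negative and 3 positive, but without HCME-sEV library 1 the median was -0.00363. None was called by edgeR, limma-voom or DESeq2, and 1 had an unadjusted p under 0.05. This was Cyc1, the cytochrome c1 subunit, at 140, 141, 126 and 130 CPM after HCME-sEVs and 115, 123 and 117 CPM after LME-sEVs. Its groups did not overlap (log2 fold change -0.18, SE 0.08, FDR 0.179). Uqcrfs1, the Rieske iron-sulfur protein (-0.06, FDR 0.767), and the core proteins Uqcrc1 (0.03, FDR 0.885) and Uqcrc2 (0.07, FDR 0.694) were close to 0. Among the small subunits, 4 of 5 were negative, from -0.19 (Uqcr11, FDR 0.267) to 0.03 (Uqcrh, FDR 0.879).

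Complex IV, cytochrome c oxidase, reduces oxygen. Its 14 members had a median of 0.03 (log2), and 1, Cox7a2l, was called. The 10 widely expressed subunits lay between -0.11 (Cox7b) and 0.12 (Cox7a2, FDR 0.56), with 0 called by any of the 3 tools and 0 at an unadjusted p under 0.05. Among them, Cox4i1, a regulatory subunit, was at 299, 289, 290 and 255 CPM after HCME-sEVs and 281, 295 and 247 CPM after LME-sEVs (log2 fold change -0.05, FDR 0.803). Cox5a (-0.01), Cox6c (0.02) and Cox8a (0.05) also had overlapping groups. Cox7a2, the close relative of Cox7a2l that sits in the enzyme itself, was at 658, 541, 517 and 479 CPM after HCME-sEVs and 581, 695 and 509 CPM after LME-sEVs, so its groups overlapped where those of Cox7a2l did not. The difference between the pair was not tested.

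The 3 complex IV isoforms known from other tissues, Cox6a2, Cox6b2 and Cox7a1, were counted at 0.674 to 7.19 CPM. Cox6b2, best known from testis, had the highest fold change of all members, with 3.86, 3.55, 3.73 and 3.03 CPM after HCME-sEVs and 6.19, 7.19 and 4.85 CPM after LME-sEVs. Its groups did not overlap, but it was not called (log2 fold change 0.77, SE 0.28, FDR 0.0909). Cox6a2, a heart and muscle isoform, was at 1.45 to 2.79 CPM after HCME-sEVs and 0.674 to 2.69 CPM after LME-sEVs (-0.36, FDR 0.705). Cox4i2, Cox8b and Cox8c were at 0 counts in all libraries and Cox7b2 at up to 2.

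Complex V, the ATP synthase, turns the proton gradient into ATP. Of its 16 members, 12 were negative and 4 positive, with a median of -0.03 (log2), but 7 and 9, with a median of 0.02, when scaled by library size alone. None was called by edgeR, limma-voom or DESeq2, and 2 had an unadjusted p under 0.05. Atp5g1, which encodes a copy of the c-ring subunit, was at 208, 194, 185 and 193 CPM after HCME-sEVs and 159, 176 and 158 CPM after LME-sEVs. The groups did not overlap, and its FDR of 0.0549 (log2 fold change -0.25, SE 0.08) was just above the threshold. Without HCME-sEV library 3 the FDR was 0.0388. Atp5g2 and Atp5g3 encode the same mature c subunit, and their log2 fold changes were 0.17 (FDR 0.666) and -0.10 (FDR 0.514) with overlapping groups. Most of the c-ring counts were those of Atp5g3, with 1088 to 1350 CPM after HCME-sEVs and 1078 to 1170 CPM after LME-sEVs. Near-identical copies of the 3′ end of Atp5g2 exist elsewhere in the genome, so its counts may not show its level.

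Atp5h, a subunit of the peripheral stalk, was the highest of complex V, at 207, 196, 192 and 191 CPM after HCME-sEVs and 221, 228 and 224 CPM after LME-sEVs. The groups did not overlap (log2 fold change 0.19, SE 0.07, FDR 0.117), it was called when scaled by library size alone (0.24, FDR 0.0452), and near-identical copies of its 3′ end exist elsewhere in the genome. The catalytic head was close to 0, with -0.09 for Atp5a1 (FDR 0.523), -0.02 for Atp5b (FDR 0.909), -0.01 for Atp5c1 (FDR 0.981) and 0.13 for Atp5e (FDR 0.316). All 5 small membrane subunits were negative, between -0.16 (Atp5j2) and -0.01 (Atp5md), 2 of the 5 when scaled by library size alone, and none of them was called by the 3 tools or had an unadjusted p under 0.05.

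The complexes were then compared with each other. For every library, the log2 CPM of the members of a complex were averaged and set relative to the mean over the 7 libraries. The groups overlapped for all 5 complexes. For complex I these values lay between -0.07 and 0.11 after HCME-sEVs and between -0.05 and 0.04 after LME-sEVs. For complex III they lay between -0.07 and 0.20 and between -0.09 and 0.01, and for complex V between -0.09 and 0.08 and between -0.08 and 0.04. Complex IV lay between -0.14 and 0.09 after HCME-sEVs and between 0.01 and 0.07 after LME-sEVs. Complex II, with only 4 members, ranged from -0.33 to 0.23 and from -0.07 to 0.21, and its lowest and highest libraries were those in which Sdhd was lowest and highest.

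**Figure D4:**
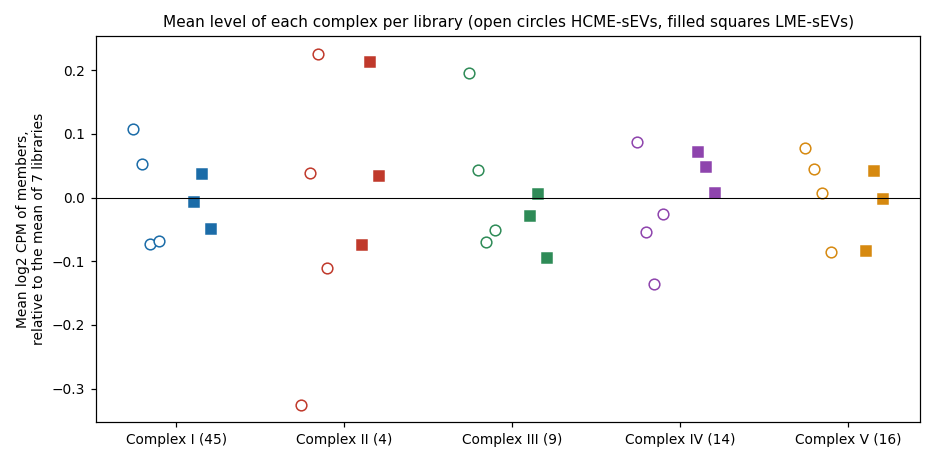
Mean log2 CPM of the members of each complex per library, relative to the mean of the 7 libraries (vertical axis), with open circles for HCME-sEVs (n = 4) and filled squares for LME-sEVs (n = 3). The groups overlap in all 5 complexes, and the spread is widest for complex II.

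A difference between complexes taken within a library does not depend on the scaling of that library. Of the 10 pairs of complexes, which share complexes with each other, 2 had groups that did not overlap. Among all tested genes this was so for 20.3%. Complex III minus complex IV, relative to its mean, was 0.11, 0.10, 0.07 and -0.02 in HCME-sEV libraries 1 to 4 and -0.10, -0.04 and -0.10 in LME-sEV libraries 1 to 3. It was therefore lower in every LME-sEV library, by 0.14 on the log2 scale between the group means (0.06 ± 0.06, SD, n = 4, and -0.08 ± 0.03, SD, n = 3). Complex I minus complex III was -0.09 to 0.01 after HCME-sEVs and 0.02 to 0.05 after LME-sEVs, a difference of 0.06. With the 81 members at a mean of at least 20 CPM, a restriction chosen after seeing the data, both pairs kept groups without overlap and the difference of complexes III and IV was -0.13. Complex I minus complex IV then also had groups that did not overlap (-0.08). The mean of complex IV includes Cox7a2l and the isoforms at a few CPM, among them Cox6b2. Over its 10 widely expressed subunits alone, also chosen after seeing the data, complex III minus complex IV was 0.02 to 0.06 after HCME-sEVs and -0.06 to -0.04 after LME-sEVs, a difference of -0.09, still without overlap. Complex I minus complex IV had overlapping groups under that restriction, with a difference of -0.04. No test was made of these means over members.

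The related genes that the symbol rule leaves out were counted from lists. Over the assembly factors of the 5 complexes, the 8 Ndufaf genes included, 4 of 50 tested genes (8.0%) were called, against 8.96% of all tested genes, all 4 lower (5.21% of all genes), with log2 fold changes that were negative for 23 and positive for 27. The other two called genes were Uqcc1, a complex III assembly factor, and Cox19, which takes part in copper delivery to complex IV. Uqcc1 was at 35.4, 31.4, 26.9 and 31.4 CPM after HCME-sEVs and 22.1, 21.6 and 25.01 CPM after LME-sEVs (log2 fold change -0.45, SE 0.13, FDR 0.0321), and was called in 1 of the 7 fits that left out a library, with FDR values up to 0.147. Cox19 was at 21.2, 20.02, 24.5 and 24.4 CPM and at 14.0, 18.6 and 13.6 CPM (-0.55, SE 0.15, FDR 0.0278), called in 4 of those 7 fits, with FDR values up to 0.161. DESeq2 called neither of these (FDR 0.0688 and 0.059). No gene was called among 7 other complex I assembly factors, 4 for complex II or 4 genes for assembly and inhibition of complex V, by edgeR, limma-voom or DESeq2, of which 0, 0 and 2 had an unadjusted p under 0.05.

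Cycs, the cytochrome c that carries electrons from complex III to IV, was at 58.8, 80.1, 66.4 and 56.3 CPM after HCME-sEVs and 51.1, 47.6 and 55.8 CPM after LME-sEVs, without overlap and without a call (log2 fold change -0.34, FDR 0.0763). Of 14 enzymes of the tricarboxylic acid cycle, 0 were called by the 3 tools. An unadjusted p under 0.05 was found for 5 of them (35.7%), against 22.7% of all tested genes. Among tested genes averaging 20 CPM or more, a level that all 14 exceeded, the share was 29.7%. Of 11 tested regulators of the transcription of nuclear or mitochondrial oxidative phosphorylation genes, 0 were called by the 3 tools. In this list 2 (18.2%), Gabpb1 (log2 fold change 0.22, FDR 0.17) and Tfam (-0.23, FDR 0.0855), had an unadjusted p under 0.05. Of the 13 mRNAs of the mitochondrial genome, 8 were tested and 1, mt-Nd6, a complex I subunit read from the other mitochondrial strand than the rest, was called lower (-1.05, SE 0.14, FDR 0.000164). Its 3′ end overlaps that of mt-Nd5 on the other strand, so reads there may not have been told apart, and mt-Nd5 was at 3365 to 5126 CPM after HCME-sEVs and 3002 to 3557 CPM after LME-sEVs (-0.34, FDR 0.0584). mt-Nd6 was at 49.1 to 75.9 CPM after HCME-sEVs and 23.8 to 32.6 CPM after LME-sEVs, while the 8 tested summed to 30900 to 39300 and 30600 to 33300 CPM, and 7 of the 8 had negative log2 fold changes. The other 5 were listed at 0 counts in all libraries.

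The promoter windows of the members were searched for motifs of factors known to drive these genes. A RefSeq window was found for 73 members, and of the 12623 tested genes for 9247. The motifs were the NRF1 core CGCATGCG, the ETS site CCGGAAG bound by GABPA, the YY1 site AAGATGGC, the E-box CACGTG and the estrogen-related receptor site TCAAGGTCA, each searched on both strands. None of the 5 motifs contains another. The NRF1 core was in 13.7% of members' windows, 4.14% of those of tested genes and 1.91% of all 27025 windows. The YY1 site was in 13.7%, 5.09% and 2.88%. The ETS site was in 24.7% of members' windows and 19.7% of those of tested genes, and the E-box in 8.22% and 10.4%. The estrogen-related receptor site was found in 2 members, Sdhd and Atp5g3.

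At least 1 of the NRF1, ETS and YY1 motifs was in 33 of the 73 windows (45.2%), against 26.7% for tested genes. The YY1 site was in 8 of 40 complex I windows and in 2 of complex V, Atp5pb and Atp5j2, and in none of complexes II to IV. Of its 10 matches, 9 lay 10 to 38 bases downstream of the start on the strand of the gene. In all tested genes this was so, anywhere downstream, for 44.9% of 490 matches. Median GC content was 59.0% in members' windows and 60.7% in those of tested genes. A match describes the letters of a window and is no evidence of binding.

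**Figure D5:**
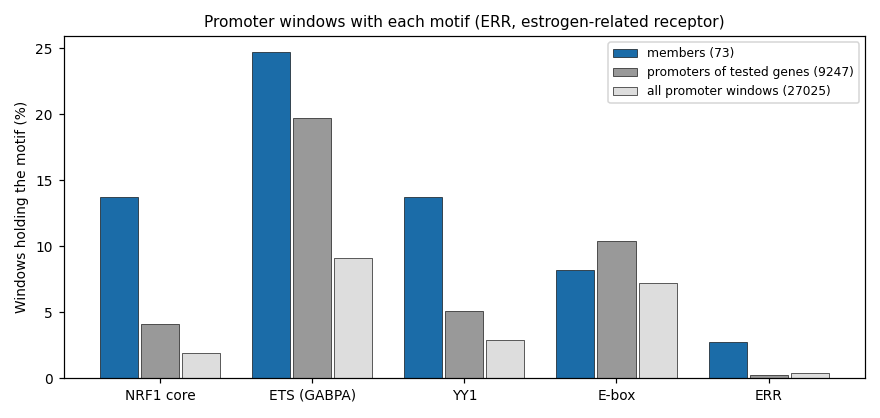
Share of promoter windows holding each motif (vertical axis, percent, from 0) for the 73 members with a window, the 9247 tested genes and all 27025 windows. The NRF1 core and YY1 bars of the members stand at 13.7%, above 4.14% and 5.09% for tested genes.

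Some rows bear on how complete the complexes are. Ndufb1-ps, which the symbol rule leaves out, was counted at 197 to 251.3 CPM after HCME-sEVs and 220 to 274 CPM after LME-sEVs (log2 fold change 0.16, FDR 0.309), with overlapping groups. Atp5o, a peripheral stalk subunit of complex V, was listed at 0 counts in all libraries, and in GENCODE vM21 its symbol belongs to overlapping gene models. A near-identical 3′ end elsewhere in the genome was found for 13 members, among them Ndufs5 and Atp5g2, and for none of the 4 called members. The counts of those 13 may therefore not show their level. No counts were listed for the copy of Ndufs5, and the copies of Atp5g2 summed to a mean of 5.86 counts per library.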

How the data were processed

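The authors deposited counts per gene symbol for 7 libraries made with a 3′ mRNA kit with unique molecular identifiers (UMIs). Per the labels, the processing tools were FastQC, cutadapt 2.10, STAR 2.5.3a, UMI-tools 1.0.0 and featureCounts of Subread 2.0.0, and the build was GRCm38. The annotation release and the strand setting are not given in the sources used here. Collapsing by UMI removes PCR copies, and counts depend on the annotated 3′ end rather than on transcript length. Members and gene lists were chosen with earlier results of these data known.

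Genes averaging 5 or more counts were kept, scaled by TMM and tested with edgeR 4.0.16 (quasi-likelihood, no covariate) in R 4.3.3, with Benjamini-Hochberg adjustment over 12623 genes. Log2 CPM used a prior count of 2. Intervals are 95%, and the floor of 3 counts covers counting error only. Marker sums and those of the mitochondrial mRNAs are scaled to library totals, without TMM. Gene positions came from GENCODE vM21 and promoter windows from RefSeq (GRCm38.p6). Near-identical 3′ ends had at least 95% identity over at least 200 of the last 300 bases. Alternatives were other scalings and filters, limma 3.58.1 (voom), DESeq2 1.42.0, the replicate number as a block, and leaving out each library. Named genes were every called member, 25 members fixed by role (1 is not reported here), the highest and lowest member of each complex and the called genes of the other lists. The highest and lowest members of a role, Ndufa5, Cycs, Gabpb1, Tfam, Sco2, mt-Nd5, Gramd4 and the rows outside the rule were named after their values were seen.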

Additional observations from a re-analysis of the deposited data

How the results depend on the processing

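The fit of the report called 2 members lower and 2 higher. The count of members called lower was 1 with upper quartile scaling, with library sizes alone and with DESeq2, 0 over the 80 members that are no assembly factors, and 5 with the replicate block. Library sizes alone gave 3 called higher, with Atp5h. Leaving out 1 library gave 0 to 3 members called lower, with 0 without LME-sEV library 2 or 3, and 1 to 2 called higher, with 1 without HCME-sEV library 2 or 3 or any LME-sEV library. The median log2 fold change of the members lay between -0.03 and 0.04 over all alternatives and changed sign, and all-gene medians under the scalings lay between 0.01 and 0.06. Among the 16 alternative fits, Cox7a2l was called in 16, Ndufaf4 in 14, Ndufv3 in 11 and Ndufaf2 in 6. The causes were not tested.

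Whether the replicate numbers pair the libraries is not known, and the labels name no shared batch. Same-numbered libraries deviated together with correlations of 0.07, 0.16 and 0.03 over genes, against -0.21 to 0.08 for the other pairs. With so few pairs these values cannot decide the question. The replicate block also called Atp5g1, Ndufa5 and Ndufa4 lower and, among related genes, Cycs (FDR 0.0116), Tfam (0.0267), Sco2 (0.026) and mt-Nd5 (0.006). HCME-sEV library 4 has no LME-sEV library of the same number, so it adds nothing to the fold changes of that fit. Depth and the 7 libraries left a median interval half-width of 0.19 on the log2 scale over the members and of 0.77 over the 3 isoforms at a few CPM.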

Other observations

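Sdhd varied between libraries of a group more than any other member. Of 3906 tested genes with a mean within 2-fold of its level, 1 other, Gramd4, had a larger within-group SD (0.96 against 0.81 on the log2 scale). Gramd4 was at 7.23, 33.2, 41.9 and 23.3 CPM in HCME-sEV libraries 1 to 4 and 15.1, 24.0 and 40.7 CPM in LME-sEV libraries 1 to 3, where Sdhd was at 11.8, 35.0, 56.5 and 22.6 and at 20.2, 41.8 and 38.8 CPM. In both genes HCME-sEV library 1 was lowest and HCME-sEV library 3 highest. Members at a mean of at least 20 CPM had a median within-group SD of 0.13 on the log2 scale, as did all tested genes at that level (0.13).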
